A study of Mus musculus with 9 samples.

Results

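The 10 genes described here, *Pla2g4a*, *Ptgs1*, *Ptgs2*, *Tbxas1*, *Ptger4*, *Alox12*, *Alox5*, *Alox5ap*, *Ltc4s* and *Pla2g7*, encode enzymes and 1 receptor of eicosanoid and lipid mediator metabolism. They were taken by gene name from a table of RNA-seq read counts in sorted mouse HSCs, and all 10 were found among its 56748 genes and passed the filter on low counts in each comparison. The libraries came from bone marrow of female C57BL/6 mice, in 3 groups of 3 biological replicates (n = 3). Young HSCs (yHSCs) were taken at an age of 6 to 10 weeks, and the Selp_low and Selp_high fractions of pre-aged HSCs (paHSCs) at 14 to 16 months. All 3 groups were sorted as SLAM-HSCs (Lin-Sca1+c-Kit+CD48-CD150+), and the paHSCs were split by surface P-selectin, the adhesion receptor encoded by *Selp*. The animals carried no transgene named in the sources used here, and whether a library pooled several mice is not given there.

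Eicosanoids are signaling lipids made from arachidonic acid, which cytosolic phospholipase A2 (*Pla2g4a*) frees from membrane phospholipids. Cyclooxygenases (*Ptgs1*, *Ptgs2*) turn it into the precursor of prostaglandins and thromboxane, while lipoxygenases (*Alox12*, *Alox5*) turn it into hydroxylated fatty acids and leukotrienes. In blood, platelets are known for thromboxane and for the product of 12-lipoxygenase, myeloid cells for leukotrienes, and prostaglandin E2 is known to act on HSCs through its receptors.

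The libraries held 24866975 to 35375310 gene counts. Levels are CPM, the counts of a gene relative to all counts of its library, after TMM scaling, which corrects the totals for a few dominant genes. Before that scaling, a count of 0 allowed up to 0.0848 to 0.121 CPM (3 counts, counting error only). After it, 3 counts were 0.198 CPM in Selp_low replicate 2. In Selp_low replicate 2 the 10 most abundant genes took 44.8% of all counts, and in the other libraries between 3.90% and 20.9%. The check of the sort, *Selp*, was measured at 20.5, 30.0 and 23.2 CPM in yHSC replicates 1, 2 and 3, at 109, 29.3 and 93.3 CPM in Selp_low paHSCs and at 652, 265 and 264 CPM in Selp_high paHSCs. Between the fractions its log2 fold change was 2.34 ± 0.60 (SE, edgeR adjusted p = 0.338, DESeq2 0.00887), so that edgeR did not call the gene used for the sort either. *Kit*, *Ly6a* and *Slamf1*, which encode the c-Kit, Sca1 and CD150 of the sort, had counts in every library but were uneven. *Kit* was at 196, 499 and 649 CPM in yHSCs, 120, 103 and 179 CPM in Selp_low and 220, 386 and 426 CPM in Selp_high paHSCs. *Slamf1* was at 10.9, 15.2 and 19.3 CPM, 66.3, 62.6 and 41.0 CPM and 198, 158 and 78.5 CPM in the same groups. *Ly6a* ranged from 69.6 to 879 CPM. Markers of other cell types were also present and uneven. The summed level of 12 neutrophil markers (most abundant *Ngp* and *S100a9*) was 64945, 13493 and 19400 CPM in the yHSC libraries, 5101, 585 and 213723 CPM in the Selp_low libraries and 6176, 1703 and 43371 CPM in the Selp_high libraries. That of 12 megakaryocyte and platelet markers (most abundant *Pf4* and *Itga2b*) was 125, 195 and 207 CPM in yHSCs, 165, 1677 and 2162 CPM in Selp_low paHSCs and 1354, 8121 and 3973 CPM in Selp_high paHSCs. The sums of 9 B cell markers stood at 5421 and 7649 CPM in Selp_low replicates 1 and 2 and at 64.0 to 497 CPM in the other libraries. Those of 8 T and NK cell markers were 58.1 to 92.1 CPM in yHSCs, 271 to 795 CPM in Selp_low and 130 to 152 CPM in Selp_high paHSCs. For 7 erythroid markers they were 279 to 2523, 1475 to 2956 and 752 to 1226 CPM. For 10 HSC markers they were 1035 to 2294, 819 to 1505 and 2174 to 3121 CPM.

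In Selp_high paHSCs, 4 of the 10 genes were above Selp_low paHSCs in every library: *Alox12*, *Pla2g7*, *Tbxas1* and *Pla2g4a*. Of all genes tested, 10.3% were, and edgeR called 0 of the 10 genes. The largest difference was that of *Alox12* at 50.7-fold, followed by 5.73-fold for *Pla2g7*, 3.08-fold for *Tbxas1* and 2.53-fold for *Pla2g4a*. The same 4 genes and *Ptgs1* were above every yHSC library, as were 8.52% of all genes tested. *Ltc4s* was below every yHSC library, as were 5.28% of all genes tested, and edgeR again called 0 of the 10. *Alox5*, its partner *Alox5ap* and *Ptgs2* overlapped between the groups in all comparisons.

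The promoter sequences of the 3 genes that passed DESeq2's thresholds between the paHSC fractions are shown because their levels set these fractions apart. RefSeq (GRCm38.p6) held promoters for 9 of the 10 genes, and the 250 bases before the annotated start are given 5′ to 3′ in the direction of the gene. Capitals mark matches to 4 kinds of short motif, searched on both strands: GATA factor (AGATAA or AGATAG, and with another first base TGATAA or TGATAG), RUNX (TGTGGT), ETS (GGAAGT) and GC box (GGGCGG), which overlap nowhere in these sequences. The *Alox12* window is chr11:70255371-70255620 on the minus strand, that of *Tbxas1* is chr6:38918736-38918985 on the plus strand and that of *Pla2g7* is chr17:43568201-43568450 on the plus strand.
Alox12: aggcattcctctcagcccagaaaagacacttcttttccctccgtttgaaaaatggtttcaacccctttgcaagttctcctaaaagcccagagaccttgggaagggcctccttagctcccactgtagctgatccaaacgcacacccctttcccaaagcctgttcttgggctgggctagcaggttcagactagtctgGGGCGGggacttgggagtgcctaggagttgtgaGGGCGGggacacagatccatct
Tbxas1: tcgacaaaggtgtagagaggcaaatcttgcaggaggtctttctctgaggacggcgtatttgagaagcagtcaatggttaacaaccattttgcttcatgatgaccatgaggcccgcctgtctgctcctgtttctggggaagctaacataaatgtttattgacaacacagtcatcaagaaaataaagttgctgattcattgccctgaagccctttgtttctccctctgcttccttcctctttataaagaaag
Pla2g7: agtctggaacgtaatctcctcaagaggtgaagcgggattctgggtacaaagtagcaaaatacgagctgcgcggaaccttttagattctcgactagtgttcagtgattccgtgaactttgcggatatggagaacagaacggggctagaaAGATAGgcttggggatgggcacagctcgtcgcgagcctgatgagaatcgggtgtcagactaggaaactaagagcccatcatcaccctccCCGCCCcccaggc
The *Alox12* window held 2 GC boxes, 55 and 22 bases before the start, and the *Pla2g7* window a GATA motif at 102 bases and a GC box on the opposite strand at 13 bases before it. None of these letters occurred in the *Tbxas1* window. Among all 32851 promoters of this length, 26.5% held a GATA motif, 14% a RUNX motif, 19.7% an ETS motif and 32.7% a GC box. The matches are a description of these windows alone.

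**Figure D1:**
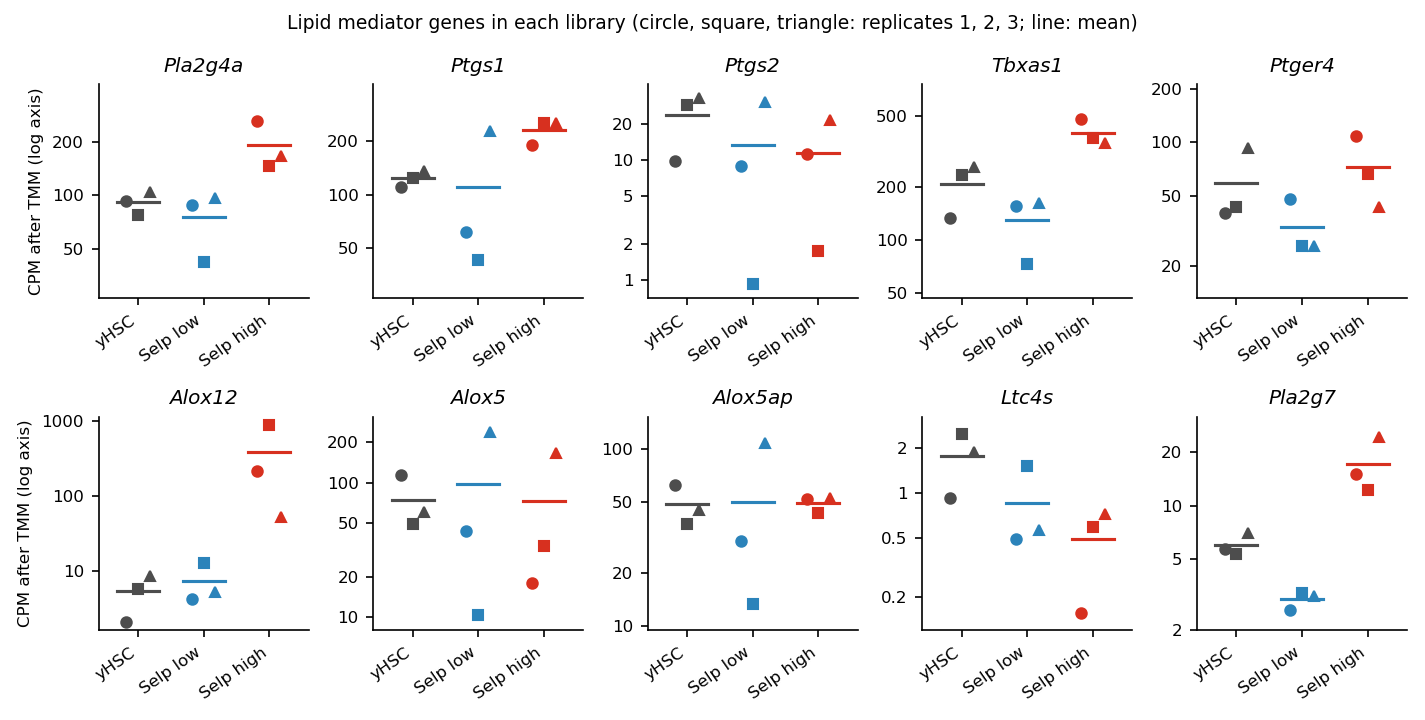
Level of each of the 10 genes in every library, in CPM after TMM scaling on log axes that differ between panels, by group, with replicates 1, 2 and 3 as circle, square and triangle and the group mean as a line. The 3 Selp_high libraries lie above all Selp_low and yHSC libraries for *Alox12*, *Pla2g7*, *Tbxas1* and *Pla2g4a*, whereas *Alox5*, *Alox5ap* and *Ptgs2* overlap.

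The comparison of the paHSC fractions asks how HSCs of the same age differ by P-selectin. With edgeR's quasi-likelihood test (a call needs an adjusted p up to 0.05 and a change of 1 or more on the log2 scale in either direction), 0 of the 10 genes were called, and 0% of the 20370 genes tested were. At an unadjusted p under 0.05, 5 of the 10 were higher in Selp_high paHSCs, against 6.88% of all genes tested. With DESeq2, the tool of the study, 3 were called higher (*Alox12*, *Pla2g7* and *Tbxas1*), against 2.1%, and limma voom with quality weights called 0. The share of all genes that voom called is not given here for any comparison, so its counts are not a result about these genes. Equal replicate numbers were taken to pair the 2 fractions, which the labels do not state and the correlations between libraries do not show. Values with a replicate block, here and for single genes, rest on that assumption. With a replicate block DESeq2 called 6 of the 10 higher, against 4.52%, while edgeR called 0. The 4 genes whose libraries did not overlap stood against 10.3% of all genes tested in that direction, and 0 of the 10 against 10.6% in the other. The median log2 fold change was 1.09 over the 10 genes and -0.11 over all genes tested. Where a gene of bulk libraries is lower, fewer cells expressing it and less RNA per cell cannot be told apart.

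For Selp_high paHSCs over yHSCs, which differ in age as well as in sorting, edgeR called 0 of the 10 genes, against 0.165% of 20017 genes tested. At an unadjusted p under 0.05, 5 were higher, against 4.48%. DESeq2 called 3 higher (*Alox12*, *Pla2g7* and *Pla2g4a*), against 1.87%, and limma voom 0. The libraries of 5 genes did not overlap and were higher (8.52% of all genes), and those of 1, *Ltc4s*, were lower (5.28%). The medians were 0.59 over the 10 genes and -0.03 over all. For Selp_low paHSCs over yHSCs, edgeR called 0 of the 10, against 0% of 20437 genes, and at an unadjusted p under 0.05 only *Pla2g7* was lower, against 4.17%. DESeq2 called 0 of the 10 in either direction, against 2.78% higher and 1.59% lower, and limma voom 0. Only *Pla2g7* had libraries that did not overlap, on the lower side (6.74%), and 0 of the 10 did on the higher side (9.59%). The medians were -0.43 over the 10 genes and 0.08 over all. These 3 comparisons share their libraries in pairs, so that their values are not independent of each other.

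**Figure D2:**
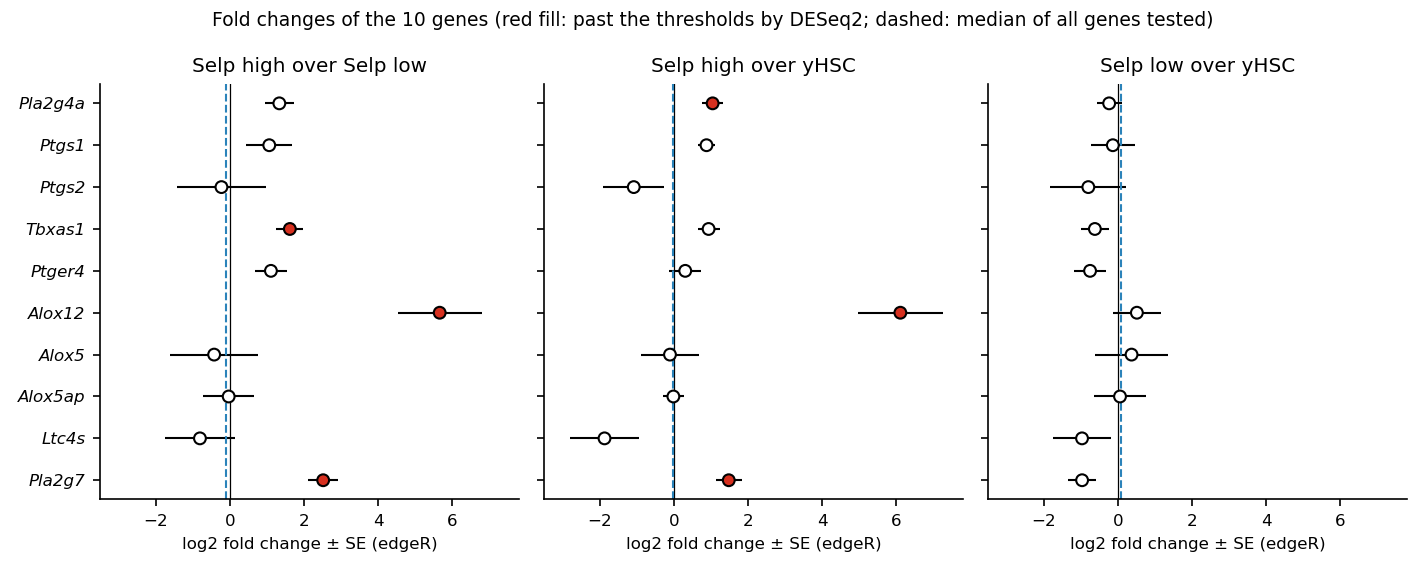
Log2 fold changes of the 10 genes with their standard errors (edgeR) in the 3 comparisons, with the genes past DESeq2's thresholds filled in red, 0 as a solid line and the median of all genes tested as a dashed line. *Alox12* lies at 5.66 and 6.11 for Selp_high paHSCs over Selp_low paHSCs and over yHSCs, and no gene is filled for Selp_low paHSCs over yHSCs.

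*Pla2g4a* (chr1:149705369-149837041 in the authors' file, mm39, minus strand), which supplies arachidonic acid to all later enzymes, was measured at 92.7, 77.1 and 104 CPM in yHSC replicates 1, 2 and 3, at 88.3, 42.1 and 96.0 CPM in Selp_low paHSCs and at 263, 147 and 165 CPM in Selp_high paHSCs. The 3 Selp_high libraries were the 3 highest, and yHSCs and Selp_low paHSCs overlapped. Group means were 91.2 ± 13.4 CPM (SD, n = 3), 75.5 ± 29.2 CPM and 192 ± 62.4 CPM. Relative to Selp_low paHSCs its log2 fold change was 1.34 ± 0.40 (SE) (edgeR adjusted p = 0.338, DESeq2 0.0631, range over the alternatives 1.93e-04 to 0.882). With the replicate block DESeq2 gave 1.36 and an adjusted p of 1.93e-04, past the thresholds. Over yHSCs it was 1.05 ± 0.29 (edgeR adjusted p = 0.337, DESeq2 0.0405, range 0.00585 to 1.000), a DESeq2 call that remained in 2 of 6 fits with 1 library left out and was lost without yHSC replicate 2 or 3 or Selp_high replicate 1 or 3. Selp_low paHSCs over yHSCs gave -0.24 ± 0.33 (edgeR adjusted p = 0.917).

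*Ptgs1* (chr2:36120438-36142284, plus strand), the constitutive cyclooxygenase and the form found in platelets, was measured at 110.4, 124 and 136 CPM in yHSCs, at 61.5, 43.1 and 229 CPM in Selp_low paHSCs and at 190.4, 253 and 254 CPM in Selp_high paHSCs. All Selp_high libraries were above all yHSC libraries, but Selp_low replicate 3 reached into the Selp_high range while the other 2 were below every other library. Relative to yHSCs the log2 fold change of Selp_high paHSCs was 0.88 ± 0.23 (edgeR adjusted p = 0.290, DESeq2 0.00932, range 2.95e-04 to 1.000), under the minimum of 1. Over Selp_low paHSCs it was 1.06 ± 0.62 (edgeR adjusted p = 0.524, DESeq2 0.362, range 1.30e-07 to 0.941), and 1.43 with an adjusted p of 0.0186 with the replicate block in DESeq2. Selp_low replicate 3, the library with the highest neutrophil sum, decided this value. Without it DESeq2 gave 2.10 (adjusted p = 1.30e-07) for the paHSC fractions and -1.20 (adjusted p = 2.44e-04) for Selp_low paHSCs over yHSCs, where all libraries gave -0.14 ± 0.59 (edgeR adjusted p = 0.992, DESeq2 0.953, range 2.44e-04 to 1.000).

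*Ptgs2* (chr1:149975782-149983978, plus strand), the inducible cyclooxygenase, was measured at 9.88, 29.1 and 33.0 CPM in yHSCs, at 8.95, 0.922 and 30.6 CPM in Selp_low paHSCs and at 11.3, 1.75 and 21.6 CPM in Selp_high paHSCs. The spread within each group was wider than the difference between groups, and the replicates numbered 2 were the lowest of both paHSC fractions. *Ptgs2* had a log2 fold change of -0.23 ± 1.20 between the paHSC fractions (edgeR adjusted p = 0.955), -1.08 ± 0.82 over yHSCs (edgeR adjusted p = 0.923) and -0.80 ± 1.02 for Selp_low paHSCs over yHSCs (edgeR adjusted p = 0.898). The direction between the paHSC fractions turned with the left-out library, from -1.05 to 1.21. The summed level of 12 monocyte and macrophage markers (most abundant *Lyz2* and *Ly6c2*) was 10787, 2273 and 3660 CPM in yHSCs, 1274, 754 and 27634 CPM in Selp_low paHSCs and 2528, 1385 and 7688 CPM in Selp_high paHSCs, and *Lyz2* alone made up 47.8% to 97% of it. Selp_low replicate 2 was lowest in both the sum and *Ptgs2*, whereas yHSC replicate 1 had the second highest sum at a *Ptgs2* level of 9.88 CPM and yHSC replicate 3 the highest *Ptgs2* at a sum of 3660.2 CPM. Their part in the result was not tested.

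*Tbxas1* (chr6:38852338-39061519, plus strand), thromboxane synthase, was measured at 134, 233 and 257 CPM in yHSCs, at 157, 73.5 and 161 CPM in Selp_low paHSCs and at 482, 378 and 350.2 CPM in Selp_high paHSCs. Every Selp_high library was above every library of the other groups, which overlapped each other. Group means were 208 ± 65.1 CPM (SD, n = 3), 131 ± 49.4 CPM and 403 ± 69.6 CPM. In Selp_high over Selp_low paHSCs the log2 fold change was 1.62 ± 0.37 (edgeR adjusted p = 0.338, DESeq2 0.00718, range 5.59e-06 to 0.882). The DESeq2 call remained in 5 of 6 fits with 1 library left out and was lost without Selp_high replicate 1 (adjusted p = 0.0644). Without Selp_low replicate 2, the lowest and the library dominated by a few genes, DESeq2 gave 1.33 (adjusted p = 0.0395). Over yHSCs the log2 fold change was 0.94 ± 0.30 (edgeR adjusted p = 0.427, DESeq2 0.0483, range 0.0483 to 1.000), under the minimum of 1, and for Selp_low paHSCs over yHSCs -0.62 ± 0.38 (edgeR adjusted p = 0.617). The gene overlaps *Hipk2* on the other strand, which had 9924 counts in the 9 libraries against 79849 for *Tbxas1*, and whether counting used strand is not given in the sources used here.

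*Ptger4* (chr15:5236142-5273668, minus strand), the EP4 receptor for prostaglandin E2, was measured at 40.1, 43.2 and 93.3 CPM in yHSCs, at 48.0, 26.2 and 26.0 CPM in Selp_low paHSCs and at 108, 66.7 and 43.4 CPM in Selp_high paHSCs. The groups overlapped in every comparison, by Selp_low replicate 1 against Selp_high replicate 3 between the paHSC fractions. Between libraries of the same number the Selp_high library was higher by 1.17, 1.35 and 0.74 on the log2 scale. The log2 fold change between the fractions was 1.11 ± 0.42 (edgeR adjusted p = 0.370, DESeq2 0.193, range 0.00161 to 0.891), and with the replicate block DESeq2 gave 1.06 and an adjusted p of 0.00161. Over yHSCs it was 0.31 ± 0.44 (edgeR adjusted p = 0.998) and for Selp_low paHSCs over yHSCs -0.75 ± 0.42 (edgeR adjusted p = 0.578). The gene overlaps *Ttc33* on the other strand, with 11743 counts against 17427.

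*Alox12* (chr11:70132283-70146179, minus strand), the platelet-type 12-lipoxygenase, was measured at 2.13, 5.77 and 8.59 CPM in yHSCs, at 4.33, 12.7 and 5.25 CPM in Selp_low paHSCs and at 215, 863 and 52.4 CPM in Selp_high paHSCs. The lowest Selp_high library was above the highest of the other 6, and the Selp_high libraries differed 16.5-fold among themselves. The gene was near the bottom of the 10 in the other groups, with raw counts of 63, 249 and 314 in the yHSC libraries. In Selp_high paHSCs the log2 fold change was 5.66 ± 1.14 over Selp_low paHSCs (edgeR adjusted p = 0.338, DESeq2 9.18e-07, range 9.25e-20 to 0.882) and 6.11 ± 1.14 over yHSCs (edgeR adjusted p = 0.141, DESeq2 1.80e-11, range 1.50e-19 to 0.596). DESeq2 called it in all 12 fits of these comparisons with 1 library left out. Selp_high replicate 2, the highest library, decided the size: without it DESeq2 gave 4.18 over Selp_low paHSCs and 4.61 over yHSCs. Selp_low paHSCs over yHSCs gave 0.51 ± 0.65 (edgeR adjusted p = 0.895).

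Taken as a sum, the megakaryocyte and platelet markers moved with *Alox12* only in part. Their sum was highest in Selp_high replicate 2, where *Alox12* was highest. Selp_high replicate 3 had a higher sum than replicate 1, 3973 against 1354 CPM, but less *Alox12*, 52.4 against 215 CPM. Of the single markers, *Ppbp*, *Gp6*, *Tubb1* and *Clec1b* had the order of *Alox12*, highest in Selp_high replicate 2 and lowest in replicate 3. The other markers of the list did not. In every Selp_high library, 7 of the 12 markers (*Ppbp*, *Gp1ba*, *Gp9*, *Gp6*, *Itga2b*, *Tubb1* and *Clec1b*) were above every Selp_low library, with 0 of 12 below. Of all genes tested, 10.3% were higher and 10.6% lower without overlap. In Selp_high replicate 1, 4 of the 12 markers (*Pf4*, *Treml1*, *F2rl2* and *Gp1bb*) were below both Selp_low replicates 2 and 3, and 7 were above both. The order of the sums between groups depended on *Pf4*, the platelet chemokine. With it the sum of Selp_high replicate 1, at 1354 CPM, was below those of Selp_low replicates 2 and 3, at 1677 and 2162 CPM, of which *Pf4* made up 68.2% and 66.5%. Without it the sums were 128, 534 and 724 CPM in the Selp_low libraries and 1275, 5941 and 1920.3 CPM in the Selp_high libraries, which then did not overlap. *Tbxas1* and *Pla2g4a* were highest, and *Ptgs1* lowest of its group, in Selp_high replicate 1, the Selp_high library with the lowest sum either way. All 12 markers had counts in every paHSC library and 11 of 12 in every yHSC library, with *Gp1bb* at 0 there. The part of such cells in the results for *Alox12*, *Tbxas1*, *Ptgs1* and *Pla2g4a* was not tested.

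*Alox5* (chr6:116387038-116438139, minus strand), the 5-lipoxygenase that starts leukotriene synthesis, was measured at 114, 49.2 and 60.8 CPM in yHSCs, at 43.6, 10.3 and 238 CPM in Selp_low paHSCs and at 17.8, 34.0 and 166 CPM in Selp_high paHSCs. Each paHSC fraction held 1 high library, replicate 3, and the groups overlapped throughout. *Alox5* had a log2 fold change of -0.42 ± 1.19 between the paHSC fractions (edgeR adjusted p = 0.910), -0.10 ± 0.78 for Selp_high paHSCs over yHSCs (edgeR adjusted p = 0.999) and 0.37 ± 0.98 for Selp_low paHSCs over yHSCs (edgeR adjusted p = 0.980). The 3 libraries with the highest *Alox5*, Selp_low replicate 3, Selp_high replicate 3 and yHSC replicate 1, also had the 3 highest neutrophil marker sums, 213723, 43371 and 64945 CPM, and Selp_low replicate 2 was lowest in both. The part of these cells in the result was not tested. Without Selp_low replicate 3 the log2 fold change between the fractions was 1.42 (edgeR adjusted p = 0.636, range over the alternatives 0.431 to 0.997).

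*Alox5ap* (chr5:149201577-149224963, plus strand), the membrane protein that presents arachidonic acid to 5-lipoxygenase, was measured at 62.9, 37.4 and 45.4 CPM in yHSCs, at 30.2, 13.3 and 108 CPM in Selp_low paHSCs and at 52.3, 43.2 and 52.8 CPM in Selp_high paHSCs. The Selp_high libraries lay close together, within 1.22-fold, and inside the range of both other groups. Its log2 fold change was -0.03 ± 0.68 between the fractions (edgeR adjusted p = 0.990), -0.01 ± 0.29 for Selp_high paHSCs over yHSCs (edgeR adjusted p = 0.999) and 0.06 ± 0.70 for Selp_low paHSCs over yHSCs (edgeR adjusted p = 0.999). The highest library, Selp_low replicate 3, and the second highest, yHSC replicate 1, were again those with the 2 highest neutrophil sums.

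*Ltc4s* (chr11:50127288-50129443, minus strand), leukotriene C4 synthase, was the least abundant by counts, with 27, 107 and 68 counts in the yHSC libraries, 15, 23 and 15 in the Selp_low libraries and 6, 24 and 25 in the Selp_high libraries. These correspond to 0.914, 2.48 and 1.86 CPM, 0.492, 1.52 and 0.562 CPM and 0.155, 0.591 and 0.716 CPM. Each Selp_high library was below each yHSC library, and Selp_low paHSCs overlapped both. *Ltc4s* had a log2 fold change of -1.87 ± 0.93 for Selp_high paHSCs over yHSCs (edgeR adjusted p = 0.764), -0.81 ± 0.94 between the fractions (edgeR adjusted p = 0.756) and -0.97 ± 0.78 for Selp_low paHSCs over yHSCs (edgeR adjusted p = 0.750). The gene shares its locus with the antisense *Gm26542*, which had 309 counts in all against 310, so that its values are uncertain without knowledge of the strand setting.

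*Pla2g7* (chr17:43878989-43923092, plus strand), the secreted acetylhydrolase that inactivates platelet-activating factor, was measured at 5.72, 5.31 and 6.999 CPM in yHSCs, at 2.59, 3.23 and 3.11 CPM in Selp_low paHSCs and at 15.1, 12.2 and 24.3 CPM in Selp_high paHSCs. It was the only one of the 10 whose 3 groups did not overlap at all, with Selp_low paHSCs lowest and Selp_high paHSCs highest. Group means were 6.01 ± 0.882 CPM (SD, n = 3), 2.98 ± 0.340 CPM and 17.2 ± 6.30 CPM. The log2 fold change between the fractions was 2.52 ± 0.40 (edgeR adjusted p = 0.338, DESeq2 4.23e-06, range 3.93e-07 to 0.882), and DESeq2 called it in 6 of 6 fits with 1 library left out. Over yHSCs it was 1.48 ± 0.36 (edgeR adjusted p = 0.249, DESeq2 0.0102, range 0.00924 to 0.956), a DESeq2 call lost without yHSC replicate 2 or 3 or Selp_high replicate 3. Selp_low paHSCs over yHSCs gave -0.97 ± 0.39 (edgeR adjusted p = 0.419, DESeq2 0.0455, range 0.0455 to 1.000), under the minimum of 1. The gene is known from macrophages, and 3 of the 12 monocyte and macrophage markers, *Csf1r*, *F13a1* and *Cd68*, were likewise above every Selp_low library in every Selp_high library, with 0 of 12 below. So were 8 of the 10 HSC markers and 10.3% of all genes tested. The monocyte and macrophage sum was highest in Selp_low replicate 3, at 27634 CPM, where *Pla2g7* was at 3.11 CPM. The part of such cells in the result was not tested.

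**Figure D3:**
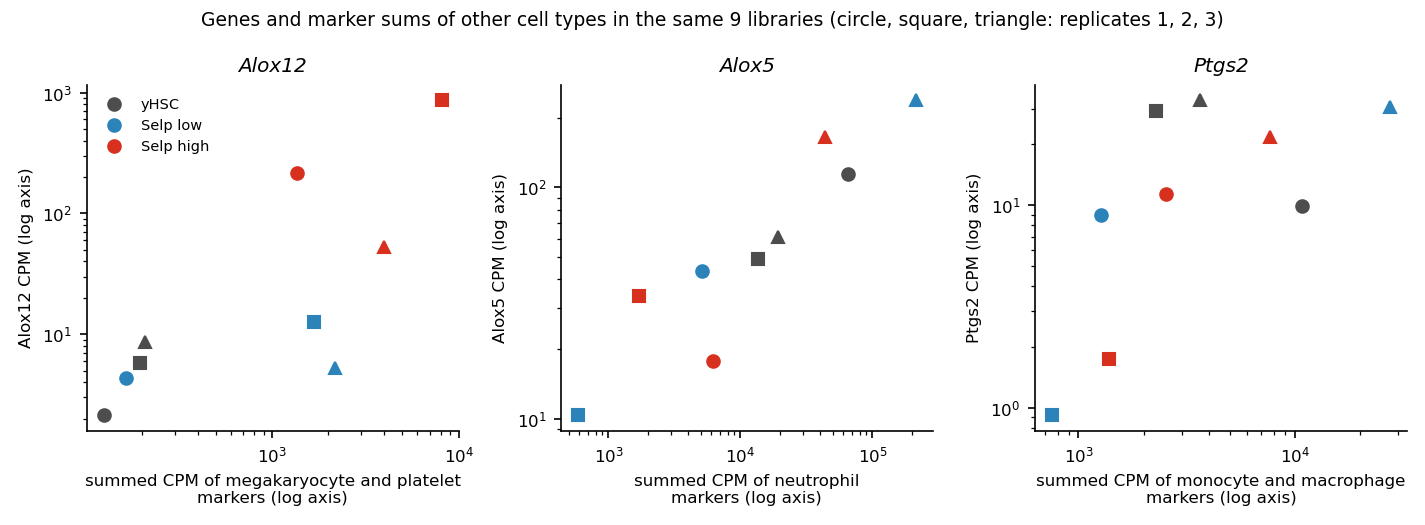
*Alox12*, *Alox5* and *Ptgs2* (CPM, log axis) against the summed CPM of markers of megakaryocytes and platelets, neutrophils, or monocytes and macrophages (log axis) in the same 9 libraries, colored by group. *Alox5* is highest in the 3 libraries with the highest neutrophil sums. *Alox12* is highest in the library with the highest platelet marker sum, and the sums of Selp_low replicates 2 and 3, above that of Selp_high replicate 1, are mostly *Pf4*.

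Levels can be compared between genes only per kilobase of gene length (FPKM). In yHSCs the order of the mean FPKM levels was *Alox5ap* at 34.2 ± 9.17 (SD, n = 3), *Ptgs1* at 31.9 ± 3.35, *Tbxas1* at 22.9 ± 7.16, *Alox5* at 18.2 ± 8.39, *Pla2g4a* at 14.3 ± 2.10, *Ptger4* at 8.85 ± 4.49 and *Ptgs2* at 5.24 ± 2.70. The last 3, *Pla2g7* at 2.07 ± 0.304, *Ltc4s* at 1.73 ± 0.778 and *Alox12* at 1.35 ± 0.792, lay within their spread of each other, as did *Alox5ap* and *Ptgs1*. In Selp_high paHSCs the order of the mean FPKM began with *Alox12* at 92.2 ± 105, *Ptgs1* at 59.8 ± 9.37, *Tbxas1* at 44.4 ± 7.66, *Alox5ap* at 34.8 ± 3.81 and *Pla2g4a* at 30.0 ± 9.77, and ended with *Ptgs2* at 2.53 ± 2.17 and *Ltc4s* at 0.481 ± 0.290. The wide spread of *Alox12* covered the genes that followed it, and its lowest Selp_high library, at 12.8 FPKM, was below *Ptgs1* in every Selp_high library. In Selp_low paHSCs *Alox12* stood at 1.82 ± 1.13 FPKM, *Ptgs1* at 28.6 ± 26.3 FPKM and *Tbxas1* at 14.4 ± 5.44 FPKM.

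Ratios of 2 genes within a library do not depend on the scaling between libraries, and were compared by an exact 2-sided permutation test of log2 ratios of counts per kilobase. With 3 libraries a group this exact test cannot go below p = 0.1, and 9 such tests were adjusted together. The log2 ratio of *Alox12* to *Alox5* was -5.72, -3.08 and -2.81 in yHSCs, -3.32, 0.30 and -5.49 in Selp_low paHSCs and 3.60, 4.67 and -1.65 in Selp_high paHSCs. In Selp_high replicates 1 and 2 and Selp_low replicate 2 the 12-lipoxygenase transcript thus exceeded that of 5-lipoxygenase, and in Selp_high replicate 3 it did not. The difference between Selp_high paHSCs and yHSCs was 6.08 (exact p = 0.1, adjusted p = 0.45) and that between the paHSC fractions 5.04 (exact p = 0.2, adjusted p = 0.6). The log2 ratio of *Ptgs1* to *Ptgs2* was 3.72, 2.33 and 2.29 in yHSCs, 3.02, 5.73 and 3.14 in Selp_low paHSCs and 4.31, 7.41 and 3.79 in Selp_high paHSCs. The constitutive form was the more abundant in all 9 libraries, and all Selp_high ratios were above all yHSC ratios. The difference was 2.39 over yHSCs (exact p = 0.1, adjusted p = 0.45) and 1.20 over Selp_low paHSCs (exact p = 0.5, adjusted p = 0.9). Taken within equal replicate numbers, the Selp_high ratio exceeded the Selp_low ratio by 6.92, 4.37 and 3.84 for *Alox12* to *Alox5* and by 1.29, 1.67 and 0.65 for *Ptgs1* to *Ptgs2*, and an exact sign-flip permutation test of 3 pairs gave p = 0.25 for each, the smallest it can give. For *Alox5ap* to *Alox5* the 3 differences lay between 0.12 and 0.64, with adjusted p = 0.9 in each exact permutation test.

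**Figure D4:**
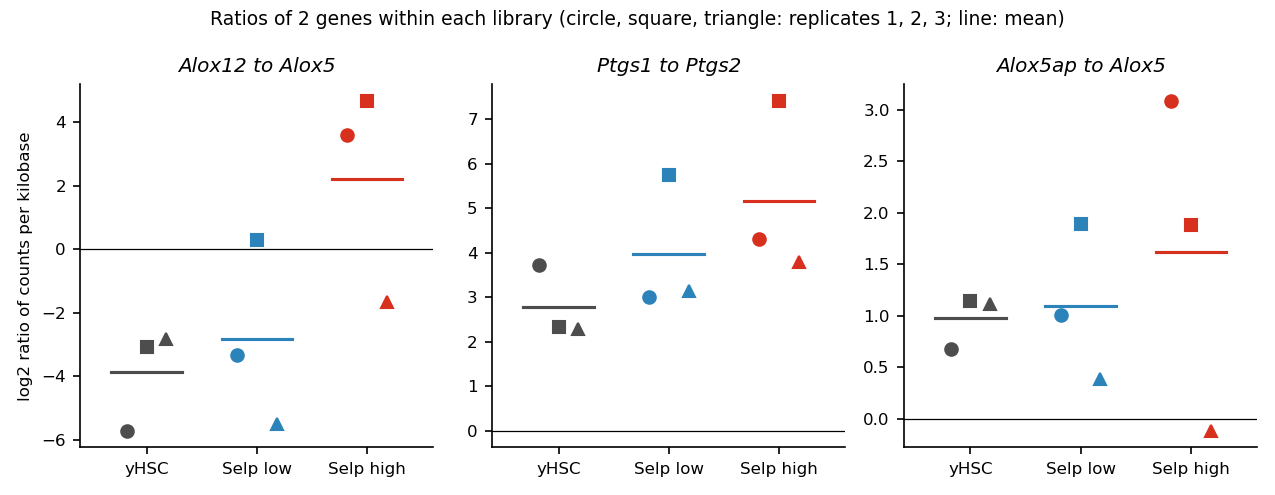
Log2 ratios of counts per kilobase of *Alox12* to *Alox5*, *Ptgs1* to *Ptgs2* and *Alox5ap* to *Alox5* in each library by group, with group means as lines and equal levels at 0. *Ptgs1* exceeds *Ptgs2* in all 9 libraries, and the *Alox12* to *Alox5* ratio is above 0 in Selp_high replicates 1 and 2 and in Selp_low replicate 2.

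Of 68 other genes of the pathway, listed by role from general knowledge, 58 were tested between the paHSC fractions, and edgeR called 0 of them in any comparison. DESeq2 called 2 of 58 higher and 0 lower between the fractions, 4 of 59 higher and 0 lower in Selp_high paHSCs over yHSCs, and 1 of 58 higher and 2 lower in Selp_low paHSCs over yHSCs. Voom called 0 between the fractions, *Ptger3* in Selp_high paHSCs over yHSCs, and *Hpgd* and *Abcc1* in Selp_low paHSCs over yHSCs. With the replicate block DESeq2 called 4 of 58 higher and 2 lower between the fractions, where it called 4.52% of all genes tested higher. The share of all genes it called lower and the shares called by voom are not given here. The adjusted p-values of the voom fit and of both block fits are given as other fits beside each gene. The medians of their log2 fold changes were 0.05, 0.11 and 0.25. Libraries did not overlap for 7 higher and 1 lower between the fractions, for 8 higher and 0 lower in Selp_high paHSCs over yHSCs, and for 2 higher and 3 lower in Selp_low paHSCs over yHSCs. Without overlap, these were 12.1% higher and 1.72% lower of the pathway genes tested between the fractions (10.3% and 10.6% of all genes tested), 13.6% and 0% in Selp_high paHSCs over yHSCs (8.52% and 5.28%), and 3.45% and 5.17% in Selp_low paHSCs over yHSCs (9.59% and 6.74%). The shares called higher by DESeq2 were 3.45%, 6.78% and 1.72%, against 2.1%, 1.87% and 2.78% of all genes, and those called lower 0%, 0% and 3.45%, against 1.83%, 1.1% and 1.59%.

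Among the 14 receptors, *Ptger3*, the EP3 receptor for prostaglandin E2, was measured at 29.8, 36.9 and 34.6 CPM in yHSCs, at 41.1, 27.9 and 52.3 CPM in Selp_low paHSCs and at 101, 82.0 and 96.5 CPM in Selp_high paHSCs. All Selp_high libraries were above all others. Its log2 fold change was 1.20 ± 0.29 between the fractions (edgeR adjusted p = 0.338, DESeq2 0.0229, other fits 1.54e-04 to 0.120) and 1.43 ± 0.23 over yHSCs (edgeR adjusted p = 0.0965, DESeq2 4.66e-07, other fits 3.08e-05 to 0.305), both past DESeq2's thresholds. *Tbxa2r*, the thromboxane receptor, was at 11.7, 22.4 and 33.8 CPM in yHSCs, 33.5, 26.5 and 34.99 CPM in Selp_low paHSCs and 49.6, 53.1 and 74.1 CPM in Selp_high paHSCs, again with the Selp_high libraries on top. Its log2 fold change was 1.37 ± 0.39 over yHSCs (edgeR adjusted p = 0.359, DESeq2 0.0183, other fits 5.91e-04 to 0.402) and 0.89 ± 0.26 between the fractions (edgeR adjusted p = 0.338, DESeq2 0.0748, other fits 0.0136 to 0.145). *Cysltr2*, a receptor for cysteinyl leukotrienes, was at 7.45, 8.09 and 7.74 CPM in yHSCs, 21.2, 12.8 and 10.6 CPM in Selp_low paHSCs and 62.8, 38.6 and 20.8 CPM in Selp_high paHSCs. Both paHSC fractions were above yHSCs in every library, with log2 fold changes of 2.37 ± 0.44 (edgeR adjusted p = 0.141, DESeq2 4.61e-05, other fits 1.71e-05 to 0.350) and 0.99 ± 0.36 (edgeR adjusted p = 0.370, DESeq2 0.125, other fits 0.0835 to 0.658), of which the first passed DESeq2's thresholds. *Ptger2*, the EP2 receptor, lay the other way, at 6.78, 6.85 and 4.98 CPM in Selp_low and 1.99, 0.911 and 4.58 CPM in Selp_high paHSCs (log2 fold change -1.33 ± 0.64, edgeR adjusted p = 0.452). The receptor with the highest mean level per length, *Ltb4r1* for leukotriene B4 (40.9 FPKM over the 9 libraries), was highest in Selp_low replicate 3 at 236 CPM.

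Of 9 genes for transport and breakdown, *Hpgd*, which inactivates prostaglandins, was measured at 8.495, 14.3 and 18.8 CPM in yHSCs, at 2.88, 4.41 and 3.45 CPM in Selp_low paHSCs and at 4.55, 20.5 and 18.4 CPM in Selp_high paHSCs. The Selp_low libraries were the 3 lowest of the 9. The log2 fold change was -1.89 ± 0.40 for Selp_low paHSCs over yHSCs (edgeR adjusted p = 0.332, DESeq2 5.88e-04, other fits 0.00363 to 0.643) and 2.01 ± 0.60 for Selp_high over Selp_low paHSCs (edgeR adjusted p = 0.338, DESeq2 0.0362, other fits 0.00854 to 0.160), both past DESeq2's thresholds. *Abcc1*, an exporter of leukotriene C4, was lower in each Selp_low library than in each yHSC library (log2 fold change -1.01 ± 0.29, edgeR adjusted p = 0.332, DESeq2 0.0262, other fits 0.0497 to 0.643). *Cyp4f18*, which oxidizes leukotriene B4, was at 162, 157 and 18.6 CPM in Selp_low paHSCs against 9.61, 19.0 and 16.5 CPM in yHSCs and 22.8, 29.8 and 53.9 CPM in Selp_high paHSCs (Selp_low over yHSCs 2.98 ± 0.79, edgeR adjusted p = 0.332, DESeq2 0.00450, other fits 0.0148 to 0.646). The 2 Selp_low libraries that stood out for it were those with the high B cell marker sums, whose part in the result was not tested. *Ephx1*, an epoxide hydrolase, was highest in the same 2 libraries (99.5, 104 and 6.56 CPM in Selp_low paHSCs), and *Ptgr1* in Selp_low replicate 3 (7.83, 9.16 and 124 CPM).

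Of 18 genes for fatty acid release and re-esterification, 14 were tested and the libraries of 3 were higher in Selp_high than in Selp_low paHSCs without overlap, where 10.3% of all genes tested were. They were the phospholipases *Pla2g15* (log2 fold change 0.95 ± 0.39, edgeR adjusted p = 0.390) and *Pla2g6* (0.92 ± 0.32, edgeR adjusted p = 0.346) and the acyltransferase *Lpcat3* (0.46 ± 0.23, edgeR adjusted p = 0.471). *Lpcat3* (32.2 FPKM), *Pla2g12a* (19.4 FPKM) and *Plaat3* (12.0 FPKM) had the highest mean levels over the 9 libraries in this role. Of 9 prostanoid synthases, 8 were tested and none was called by DESeq2, and *Ptges3* (89.7 FPKM), *Akr1b3* (20.6 FPKM) and *Cbr1* (19.6 FPKM) were the most abundant. *Ptges*, the inducible prostaglandin E synthase, was at 20.5, 14.1 and 13.3 CPM in Selp_high paHSCs against 10.2, 6.95 and 12.1 CPM in yHSCs (log2 fold change 0.69 ± 0.35, edgeR adjusted p = 0.765). *Ptges3* was higher in each Selp_low library than in each yHSC library (0.63 ± 0.23, edgeR adjusted p = 0.383, DESeq2 0.0953, other fits 0.132 to 0.656).

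Among 12 other lipoxygenases and leukotriene enzymes, *Alox15*, a lipoxygenase known from eosinophils and macrophages, was measured at 3.15, 4.33 and 10.3 CPM in yHSCs, at 1.51, 24.1 and 3.63 CPM in Selp_low paHSCs and at 9.82, 123 and 109.9 CPM in Selp_high paHSCs. Selp_high replicates 2 and 3 stood far above the rest, and replicate 1 lay inside the yHSC range. The log2 fold change was 3.78 ± 0.93 over yHSCs (edgeR adjusted p = 0.259, DESeq2 7.80e-05, other fits 8.96e-06 to 0.483) and 3.05 ± 1.26 between the fractions (edgeR adjusted p = 0.392, DESeq2 0.0699, other fits 6.22e-08 to 0.145). The summed level of 4 eosinophil markers was 687 and 1289 CPM in those 2 libraries, 722 CPM in Selp_low replicate 2, whose *Alox15* came next, and 12.2 to 107 CPM in the other 6. *Prg2* alone was at 555, 919 and 686 CPM in these first 3 libraries, and *Epx* at 75.1, 350 and 19.9 CPM. *Siglecf* was highest in Selp_low replicate 3, at 18.7 CPM. *Ccr3* was at 51.7, 4.70 and 6.52 CPM in the same 3 libraries and at 11.2 to 17.7 CPM in yHSCs. The part of such cells in the result was not tested. *Lta4h*, the leukotriene A4 hydrolase and the most abundant of the role (88.2 FPKM), was measured at 877, 299 and 343 CPM in yHSCs, at 191, 145 and 1797 CPM in Selp_low paHSCs and at 338, 166 and 687 CPM in Selp_high paHSCs. Its 3 highest libraries, Selp_low replicate 3, yHSC replicate 1 and Selp_high replicate 3, were those with the 3 highest neutrophil marker sums, whose part in the result was not tested. *Mgst3* (27.1 FPKM) followed it in mean level. *Ggt1*, a transpeptidase that converts leukotriene C4, was above yHSCs in every Selp_high library (log2 fold change 1.59 ± 0.66, edgeR adjusted p = 0.640), and *Ggt5* below yHSCs in every Selp_low library (-1.34 ± 0.44, edgeR adjusted p = 0.353). Of 6 genes of platelet-activating factor metabolism, all tested, *Pafah2* (23.6 FPKM), *Pafah1b3* (22.2 FPKM) and *Pafah1b2* (15.1 FPKM) were the most abundant, and *Pafah2* had a log2 fold change of 0.88 ± 0.37 between the fractions without overlap (edgeR adjusted p = 0.394).

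**Figure D5:**
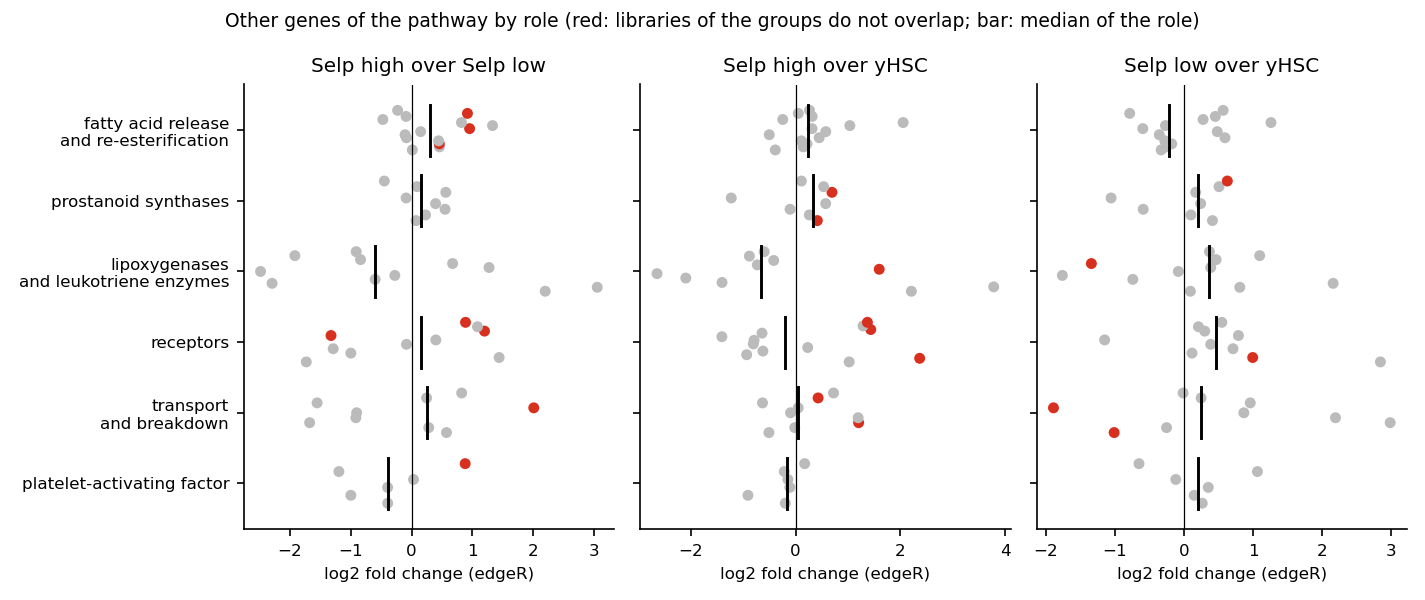
Log2 fold changes (edgeR) of the tested genes among the 68 other pathway genes, by role, in the 3 comparisons, with genes whose libraries do not overlap in red and the median of each role as a bar. The role medians lie between -0.66 and 0.47, and edgeR called 0 of the genes shown.

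Genes whose profile over the 9 libraries was most like that of a member were found by the root mean square difference of centered log2 CPM among 13117 protein-coding genes. For *Alox12* they were *Gp6* at 0.72, *Ppbp* at 0.78, *Mpig6b* at 0.79, *Slc6a4* at 0.88 and *Tubb1* at 0.88, on a profile that spanned 8.65 on the log2 scale. For *Ptgs1*, spanning 2.56, they were *Elovl7* at 0.30, *Aldh2* at 0.33, *Litaf* at 0.33, *Spire2* at 0.35 and *Tm7sf3* at 0.35. For *Alox5*, spanning 4.52, they were *Klf5* at 0.48, *Plbd1* at 0.50, *Rnd1* at 0.50, *St3gal5* at 0.52 and *Pilra* at 0.52. The points of such a profile share libraries, depth and scaling, and the values are a description.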

How the data were processed

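Total RNA of sorted mouse HSCs was measured by low-input RNA-seq (SMARTer Ultra Low RNA Kit) in 9 libraries. Per the labels and the study's methods, the authors trimmed reads with fastp, aligned them with HISAT2 2.2.1 to mm39 and counted them per gene with featureCounts 2.0.6. The deposited values are raw whole-number counts of 56748 genes without normalization, beside a gene length and a position, and 0 columns of per-sample values were left unused. The sources used here do not give the strand setting, annotation release or handling of multi-mapped reads. Other experiments of the study were not analysed here.

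Each pair of groups was fitted alone in R 4.3.3 with edgeR 4.0.16 (TMM, filterByExpr, legacy quasi-likelihood test, Benjamini-Hochberg adjustment over all genes tested). Alternatives were DESeq2 1.42.0 on the same genes, limma 3.58.1 voom with quality weights, RLE and upper-quartile factors, no filter or a mean of at least 10 counts, newer and robust settings, 1 fit of 9 libraries, no fold minimum, a replicate block and left-out libraries, with DESeq2 left-out fits, marker sums without their most abundant gene and paired ratios added after the data were seen. Ratios used a prior count of 0.5 (alternative 2). FPKM used the file's gene length. Figures were drawn with Python 3.11.15 and matplotlib 3.10.9. The fits were tested on simulated data.

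The members, the pathway and marker lists and the rules were chosen with earlier results of these data known. Named were all 10 members, pathway genes called by edgeR or among the 6 with the largest change and no overlap per comparison, the 3 most abundant per role, the 5 most like *Alox12*, *Ptgs1* and *Alox5*, and the 2 most abundant markers of a list. *Kit*, *Slamf1*, *Gp1bb*, *Treml1*, *F2rl2*, *Siglecf*, *Ccr3*, the markers that did not overlap and the overlapping genes were chosen after their values were seen. Pairing by replicate number was examined through the correlation of deviations from group means, which was 0.122, 0.245 and 0.262 for Selp_high and Selp_low paHSCs, all above the 0.1 taken as pairing, and -0.498 to 0.0811 with yHSCs. Between libraries of different numbers it reached 0.0350 for the paHSC fractions. For yHSCs and Selp_high paHSCs, which came from mice of different ages, it reached 0.530. A correlation above 0.1 thus does not show that libraries are paired. That the same mice gave both fractions is not stated in the labels. The p-values set the differences between groups against the spread between these libraries, and whether each library stands for a single mouse is not known.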

Additional observations from a re-analysis of the deposited data

How the results depend on the processing

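Of 690 recomputed log2 fold changes of the 10 genes, 581 kept direction and side of the threshold, 48 moved past it and 61 changed direction. The number called, 0 with edgeR in each comparison, was 2 between the paHSC fractions and 1 for Selp_high paHSCs over yHSCs without a filter on low counts, and 3 and 3 with DESeq2. In fits with a replicate block DESeq2 called 6 between the fractions and 2 for Selp_high paHSCs over yHSCs, where the numbers do not pair, and edgeR 0. With 1 library left out, edgeR called 0 throughout, and DESeq2 called 2 to 5 between the fractions, 1 to 3 for Selp_high paHSCs over yHSCs and 0 to 1 for Selp_low paHSCs over yHSCs. Of all genes tested, DESeq2 called 2.1% and 1.87% higher in the first 2 comparisons, and 4.52% between the fractions with the block. The shares of all genes in the remaining fits are not given here. Their counts are therefore not a result about the 10 genes. The median of the 10 kept its direction under every alternative run in each comparison. The cause of the changes was not tested.

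Between the fractions, *Alox5ap* turned to 0.0420 without a filter, 0.87 with voom quality weights, and 0.49 (edgeR) and 0.48 (DESeq2) with the replicate block. *Ptgs2* turned to 1.07 with voom, and to 0.20 (edgeR) and 0.17 (DESeq2) with the block, and *Alox5* to 1.33 with voom. For Selp_high paHSCs over yHSCs, voom gave -0.28 for *Ptger4*, 0.37 for *Alox5* and 0.20 for *Alox5ap*, which also turned to 0.0258 in 1 fit of all libraries and, with the block, to 0.0229 (edgeR) and 0.00813 (DESeq2). For Selp_low paHSCs over yHSCs, upper-quartile factors gave -0.0141 for *Alox5ap*. There voom gave -0.0137 for *Alox12*, -0.74 for *Alox5* and -0.61 for *Alox5ap*. With the block *Alox5* turned to -0.64 (edgeR) and -0.69 (DESeq2), and *Alox5ap* to -0.43 and -0.46.

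With 1 library left out, values that changed direction ranged between the fractions from -1.91 to 1.42 for *Alox5*, from -0.48 to 1.18 for *Alox5ap* and from -1.05 to 1.21 for *Ptgs2*. For Selp_high paHSCs over yHSCs they ranged from -1.59 to 0.42 for *Alox5*, from -0.18 to 0.29 for *Alox5ap* and from -0.11 to 0.74 for *Ptger4*. For Selp_low paHSCs over yHSCs they ranged from -0.20 to 0.98 for *Alox12*, from -1.47 to 0.93 for *Alox5*, from -1.16 to 0.52 for *Alox5ap*, from -0.49 to 0.0203 for *Pla2g4a* and from -1.24 to 0.24 for *Ptgs1*. The log2 ratio of *Alox12* to *Alox5* ranged from -0.53 to 2.36 for Selp_low paHSCs over yHSCs, and that of *Alox5ap* to *Alox5* from -0.22 to 1.39, -0.10 to 1.51 and -0.28 to 0.47 in the 3 comparisons. Depth limits *Ltc4s*, with 6 to 107 counts per library.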
